A study of Mus musculus with 12 samples.

Results

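Expression of 9 enzymes that make serine and carry its one-carbon units on folate is described here over the 12 RNA sequencing libraries of a glutamine withdrawal experiment in mouse fibroblasts. The members were taken by gene name from the deposited table of 19439 entries, and all 9 were found and passed the filter on low values. They are the serine synthesis enzymes Phgdh, Psat1 and Psph, the cytosolic folate enzymes Shmt1 and Mthfd1, and the mitochondrial folate enzymes Shmt2, Mthfd2, Mthfd1l and Aldh1l2. The cells were 3T3 mouse embryonic fibroblasts, which have become immortal through repeated passage, as a line labelled p53 -/- (p53-null) and a line with wildtype p53 (WT). For 18 h the p53-null line was kept in DMEM that lacked L-glutamine (glutamine-free medium) or held 2 mM of it (complete medium), and the WT line in the same media, with 3 libraries in each of the 4 groups. Both lines had been maintained in standard medium with glutamine. With 1 line per genotype, a difference between p53-null and WT is a difference between these 2 lines, and neither the p53 allele nor separate cultures for the libraries of a group are described in the labels.

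In the cytosol, cells make serine from a glycolytic intermediate by an oxidation (Phgdh), a transamination that uses glutamate as the nitrogen donor (Psat1) and a dephosphorylation (Psph). Serine then gives a carbon to tetrahydrofolate through serine hydroxymethyltransferase, in the cytosol (Shmt1) or in mitochondria (Shmt2). The mitochondrial route oxidises that carbon through Mthfd2 and either releases it as formate through Mthfd1l or oxidises it to carbon dioxide through Aldh1l2, while in the cytosol Mthfd1 joins formate to folate for purine, thymidylate and methionine synthesis. ATF4, a transcription factor made when amino acids are short, is known to induce several of these genes.

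Levels are reads per kilobase of gene length, scaled to sequencing depth (RPKM), so levels of different genes can be set side by side. Changes are differences of mean log2(RPKM + 1), which understates the change of low genes, given with a standard error (SE). Adjusted p-values come from limma with Benjamini-Hochberg adjustment over 11461 genes, with a call at 0.05. The sum of RPKM was 284430 to 292240 in p53-null and 313160 to 319740 in WT libraries. The files give no read totals; the steps between low values put the depth roughly at 37.6 to 46.9 M reads per library. The p-values reflect nothing but the scatter among the 3 libraries of each group, pooled over the 4 groups. That scatter may be technical, and most genes tested passed the test. In bulk libraries, fewer cells that express a gene and less RNA per cell cannot be told apart. Trp53, the gene of the genotype label, averaged 34.6 RPKM in p53-null and 111.8 RPKM in WT cells in glutamine-free medium, and 28.8 RPKM in p53-null and 58.5 RPKM in WT cells in complete medium. Trp53 was thus lower but not absent in the line labelled p53 -/-, and a single value per gene does not show which part of it is transcribed. Of 11 fibroblast markers 9 averaged at least 1 RPKM in each group. Lum and Thy1 were near 0 in every group and did not pass the filter. Lum averaged 0 in p53-null cells and at most 0.0277 RPKM in WT cells. Thy1 averaged 0 in WT glutamine-free libraries and at most 0.339 RPKM in any group. Summed RPKM of the 11 markers was 1432 to 1458 in glutamine-free and 2503 to 2540 in complete p53-null libraries. It was 1028 to 1036 in glutamine-free and 4125 to 4145 in complete WT libraries, so it moved with the medium in both lines. In complete medium 8 of the 9 tested were lower and 1 higher in p53-null cells, with a median log2 difference of -1.72. Over all genes 42.5% were called lower and 48.4% higher. Vim went the other way from most, at 1730 RPKM in p53-null and 760 RPKM in WT cells in complete medium. Without glutamine 5 were lower and 4 higher in p53-null cells. The part of these markers in the results was not tested.

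All 9 enzymes rose on glutamine withdrawal in WT cells, while in p53-null cells 5 rose, 3 fell and Aldh1l2 did not pass the test. The WT changes had a median of 1.15 on the log2 scale against 0.01 over all genes tested, of which 46.0% were called higher and 44.0% lower. The p53-null changes had a median of 0.09 against 0.08 over all genes, of which 50.0% were called higher and 32.0% lower. After rescaling libraries to a common sum the p53-null split was 6 up and 2 down, beside 5996 up and 3490 down over all genes. After quantile normalization it was 5 up and 4 down, beside 5060 and 4250. After median centring it was 4 up and 4 down, beside 4525 and 4984. As deposited, all genes went 5732 up and 3671 down. A rise of at least 1 on the log2 scale was reached by 6 of the 9 in WT cells, beside 9.75% of all genes, and by 0 in p53-null cells, beside 1.27%. The difference of the responses, p53-null minus WT, was below 0 and called for all 9, with a median of -1.05 against 0.06 over all genes, of which 38.4% were called lower, 46.4% higher and 84.9% in either direction. By place in the cell, the 4 mitochondrial enzymes had a median WT change of 1.74 and a median p53-null change of -0.09. The 5 cytosolic enzymes had medians of 1.03 in WT and 0.48 in p53-null cells, but 3 of them make serine. The 2 cytosolic folate enzymes had medians of 0.87 in WT and 0.30 in p53-null cells. The ranges overlapped, at 0.72 to 2.63 for mitochondrial and 0.79 to 1.79 for cytosolic enzymes in WT cells. In p53-null cells they were -0.25 to 0.31 and -0.06 to 0.65.

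**Figure D1:**
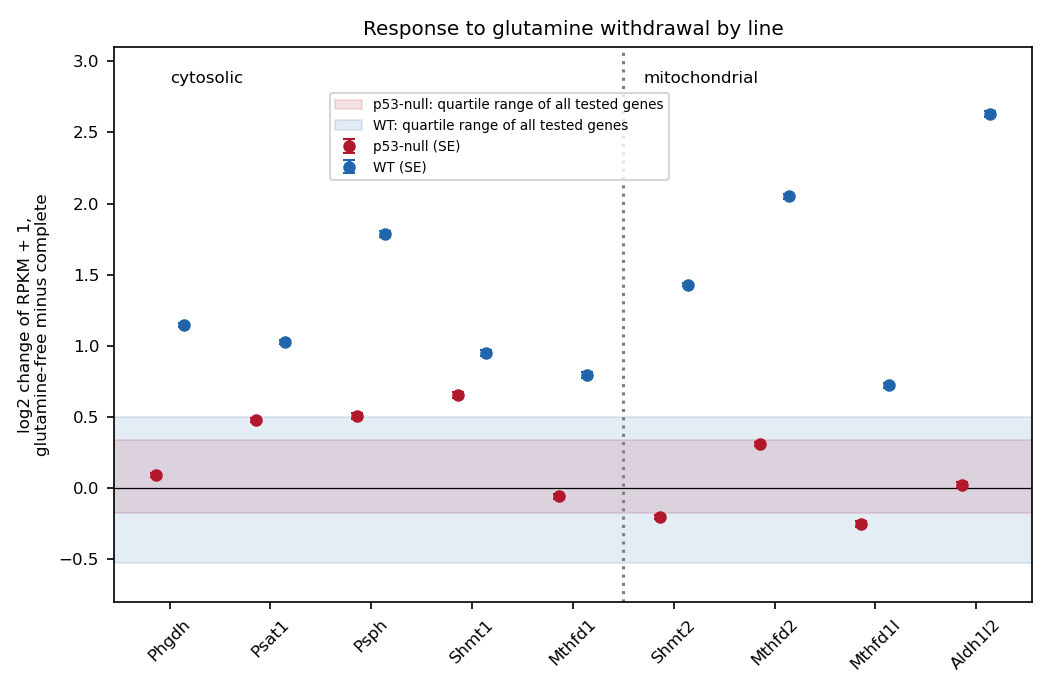
Change of each enzyme on glutamine withdrawal (log2 of RPKM + 1, glutamine-free minus complete) with its SE, in p53-null cells (red) and WT cells (blue). Shaded bands span the quartiles of all 11461 genes tested in each line. Each red point lies below its blue point, and the mitochondrial enzymes Shmt2 and Mthfd1l are below 0 in p53-null cells.

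Promoter windows are printed for the pair Shmt1 and Shmt2, which catalyse the same reaction in different places and moved in opposite directions in p53-null cells, and for Mthfd2. They come from RefSeq on GRCm38.p6, run from 250 bases before to 50 bases after the annotated start, and were matched for 8 of the 9 members, with 9 windows in all because Psat1 has a pair of them. Capitals mark CCAAT boxes, searched as CCAAT on both strands.
Shmt1 (chr11:60811216-60811515, minus strand): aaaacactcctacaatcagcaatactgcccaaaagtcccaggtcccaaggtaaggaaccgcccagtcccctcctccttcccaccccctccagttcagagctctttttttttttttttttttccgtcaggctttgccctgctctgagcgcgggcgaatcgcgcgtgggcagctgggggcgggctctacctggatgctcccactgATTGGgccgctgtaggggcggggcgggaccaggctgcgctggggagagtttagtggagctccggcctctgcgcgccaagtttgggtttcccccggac
Shmt2 (chr10:127522395-127522694, minus strand): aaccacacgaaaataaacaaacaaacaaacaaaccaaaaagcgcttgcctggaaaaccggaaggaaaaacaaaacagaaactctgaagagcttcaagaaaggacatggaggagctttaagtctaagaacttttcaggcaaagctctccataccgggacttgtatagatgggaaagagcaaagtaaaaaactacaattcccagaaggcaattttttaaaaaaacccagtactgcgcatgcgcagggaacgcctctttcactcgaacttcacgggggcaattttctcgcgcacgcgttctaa
Mthfd2 (chr6:83317555-83317854, minus strand): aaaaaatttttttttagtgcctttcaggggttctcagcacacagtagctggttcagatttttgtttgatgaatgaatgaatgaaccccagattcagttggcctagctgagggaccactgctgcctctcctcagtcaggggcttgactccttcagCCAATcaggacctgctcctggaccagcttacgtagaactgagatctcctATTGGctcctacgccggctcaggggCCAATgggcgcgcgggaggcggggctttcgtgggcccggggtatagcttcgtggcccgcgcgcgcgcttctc
A CCAAT box was present in 6 of the 9 windows and in 37.4% of all 32851 windows of the table. The Mthfd2 window holds 3, which begin 96, 47 and 22 bases before the start, and the Shmt1 window holds 1, which begins 47 bases before the start. The letters TGATGNAA, a composite element that ATF4 and C/EBP factors bind, and the E-box letters CACGTG were searched on both strands and matched 0 of the 9 windows, against 3.97% and 7.15% of all windows. No match says only that the letters are not in these windows. The genes Mthfd2, Shmt1 and Psat1 as annotated in GENCODE extend further upstream than their windows.

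All 3 serine synthesis enzymes rose in both lines. Phgdh, which takes the first step (chromosome 3, 98313170 to 98339990, minus strand, mm10, GENCODE M21), had 273, 274 and 274 RPKM in glutamine-free and 255, 259 and 256 RPKM in complete p53-null libraries. In WT cells Phgdh had 298, 309 and 312 RPKM in glutamine-free and 139, 137 and 137 RPKM in complete libraries. The WT libraries in complete medium thus stood far below the other 9, which lay within 255 to 312 RPKM. On withdrawal Phgdh rose by 1.15 ± 0.016 (SE, log2, adjusted p = 8.3e-16) in WT cells and by 0.09 ± 0.016 (adjusted p = 1.5e-04) in p53-null cells, a rise that became -0.01 (adjusted p = 0.38) after median centring. Between lines it was higher in p53-null cells in complete medium, by 0.89 ± 0.016 (adjusted p = 9.3e-15). In glutamine-free medium the line difference was -0.16 ± 0.016 (adjusted p = 5.4e-07), but -0.01 after rescaling to a common sum and 0.20 after quantile normalization, so its sign depends on the scaling.

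Psat1, the transaminase (chromosome 19, 15904678 to 15947337, minus strand), had 212, 215 and 215 RPKM in glutamine-free and 152, 155 and 153 RPKM in complete p53-null libraries. In WT cells it had 278, 282 and 283 RPKM in glutamine-free and 139, 137 and 136 RPKM in complete libraries. The 4 groups did not overlap, a separation that was not counted over all genes. Psat1 rose by 1.03 ± 0.013 in WT cells (adjusted p = 4.3e-16) and by 0.48 ± 0.013 in p53-null cells (adjusted p = 4.0e-12). It was the member with the smallest line difference in complete medium, 0.16 ± 0.013 higher in p53-null cells (adjusted p = 1.0e-07), and in glutamine-free medium the difference was -0.39 ± 0.013 (adjusted p = 6.7e-12).

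Psph, the phosphatase that releases free serine (chromosome 5, 129765558 to 129787449, minus strand), had 86.1, 86.4 and 87.4 RPKM in glutamine-free and 59.9, 62.1 and 60.0 RPKM in complete p53-null libraries. In WT cells it had 48.1, 50.6 and 49.6 RPKM in glutamine-free and 14.04, 13.5 and 13.3 RPKM in complete libraries. Psph was higher in every p53-null library, in either medium, than in any WT library, which held for no other member but Mthfd1l. The share of all genes tested that show such a separation was not counted, so it is not known to be unusual. In complete medium 48.4% of all genes were called higher and 42.5% lower in p53-null than in WT cells. Psph rose by 1.79 ± 0.022 in WT cells (adjusted p = 3.1e-16) and by 0.51 ± 0.022 in p53-null cells (adjusted p = 2.5e-10). The p53-null line exceeded WT by 2.08 ± 0.022 in complete medium (adjusted p = 7.9e-17), a fold of 4.45 in mean RPKM, and by 0.80 ± 0.022 in glutamine-free medium (adjusted p = 9.0e-13). Of its exon sequence 10.4% lies under Cct6a on the other strand, and because strand is not marked by the kit, reads of that stretch cannot be told apart; the same holds for 4.74% of Shmt1 exon sequence under Smcr8 and 1.03% of Shmt2 under Ndufa4l2.

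The cytosolic folate enzymes parted in p53-null cells, where Shmt1 rose and Mthfd1 fell slightly. Shmt1, the cytosolic serine hydroxymethyltransferase (chromosome 11, 60788104 to 60811718, minus strand), had 35.4, 36.4 and 35.6 RPKM in glutamine-free and 22.2, 22.6 and 22.4 RPKM in complete p53-null libraries. In WT cells Shmt1 had 32.7, 31.5 and 32.3 RPKM in glutamine-free and 16.3, 16.3 and 16.0 RPKM in complete libraries. Both glutamine-free groups stood above both complete groups, an order that was not counted over all genes. Its changes on withdrawal were the closest between lines, 0.65 ± 0.018 in p53-null cells (adjusted p = 4.3e-12) and 0.95 ± 0.018 in WT cells (adjusted p = 1.8e-14). That p53-null change was larger in size than those of all but 12.2% of the genes tested. In complete medium Shmt1 was 0.44 ± 0.018 higher in p53-null cells (adjusted p = 4.6e-11), and in glutamine-free medium 0.15 ± 0.018 higher (adjusted p = 5.0e-06, but 0.01 with adjusted p = 0.51 after median centring).

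Mthfd1, which interconverts the cytosolic folate one-carbon forms and joins formate to tetrahydrofolate (chromosome 12, 76255298 to 76319803, plus strand), had 31.1, 31.9 and 32.4 RPKM in glutamine-free and 32.9, 33.4 and 33.2 RPKM in complete p53-null libraries. In WT cells it had 36.9, 37.1 and 37.4 RPKM in glutamine-free and 20.4, 21.5 and 21.1 RPKM in complete libraries. The p53-null groups were close but did not overlap, and the WT groups were far apart. The p53-null change was -0.06 ± 0.0205 (adjusted p = 0.017), which failed the call without replicate 2 of complete (adjusted p = 0.054) or replicate 1 of glutamine-free medium (adjusted p = 0.08) and after rescaling to a common sum (adjusted p = 0.11). In WT cells it rose by 0.79 ± 0.0205 (adjusted p = 3.1e-13). Mthfd1 was 0.64 ± 0.0205 higher in p53-null cells in complete medium (adjusted p = 3.3e-12) and differed by -0.22 ± 0.0205 in glutamine-free medium (adjusted p = 3.1e-07).

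Among the mitochondrial enzymes, all 4 rose in WT cells, and in p53-null cells Mthfd2 rose, Shmt2 and Mthfd1l fell and Aldh1l2 was not called. Shmt2, the mitochondrial serine hydroxymethyltransferase (chromosome 10, 127517123 to 127522444, minus strand), had 137.2, 137.3 and 137.4 RPKM in glutamine-free and 157, 159 and 158 RPKM in complete p53-null libraries. In WT cells Shmt2 had 152, 157 and 156 RPKM in glutamine-free and 57.1, 56.1 and 57.3 RPKM in complete libraries. Only the WT complete libraries were low; the other 9 lay within 137 to 159 RPKM. It rose by 1.43 ± 0.014 in WT cells (adjusted p = 2.8e-17) and fell by 0.20 on the log2 scale in p53-null cells (SE 0.014, adjusted p = 1.4e-08). In complete medium the p53-null line was higher by 1.46 ± 0.014 (adjusted p = 1.8e-17). The line difference in glutamine-free medium was -0.17 ± 0.014 (adjusted p = 4.1e-08), but 0.03 (adjusted p = 0.14) after quantile normalization and -0.02 (adjusted p = 0.073) after rescaling to a common sum.

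Mthfd2, the mitochondrial dehydrogenase and cyclohydrolase that oxidises the carbon taken from serine (chromosome 6, 83305691 to 83325908, minus strand), had 106, 109 and 109 RPKM in glutamine-free and 87.9, 86.6 and 86.1 RPKM in complete p53-null libraries. In WT cells Mthfd2 had 188, 188 and 187 RPKM in glutamine-free and 45.3, 43.6 and 44.7 RPKM in complete libraries. The WT groups enclosed the p53-null groups, from below in complete and from above in glutamine-free medium. Mthfd2 rose by 2.05 ± 0.017 in WT cells (adjusted p = 9.9e-18), a fold of 4.21 in mean RPKM that 3.41% of tested genes exceeded in size on the log2 scale. In p53-null cells it rose by 0.31 ± 0.017 (adjusted p = 2.3e-09). The p53-null line was 0.95 ± 0.017 higher in complete medium (adjusted p = 1.0e-14) and differed by -0.79 ± 0.017 in glutamine-free medium (adjusted p = 6.9e-14).

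Aldh1l2, the mitochondrial dehydrogenase that turns formyl-folate into carbon dioxide with gain of NADPH (chromosome 10, 83487450 to 83534140, minus strand), had 47.6, 48.4 and 47.0 RPKM in glutamine-free and 45.8, 48.1 and 46.7 RPKM in complete p53-null libraries. In WT cells Aldh1l2 had 107, 104 and 105 RPKM in glutamine-free and 16.1, 16.0 and 16.4 RPKM in complete libraries. The p53-null groups overlapped, and the WT groups lay on either side of them. The WT rise of 2.63 ± 0.020 (adjusted p = 4.3e-18), a fold of 6.51 in mean RPKM, was the largest of the 9 and was exceeded in size by 1.32% of tested genes. The p53-null change was 0.02 ± 0.020 (adjusted p = 0.30). It took either sign with the scaling, at 0.05 after rescaling to a common sum, -0.08 after median centring and -0.09 after quantile normalization, each called. The p53-null line was 1.48 ± 0.020 higher in complete medium (adjusted p = 5.4e-16) and differed by -1.13 ± 0.020 in glutamine-free medium (adjusted p = 8.7e-15). Of its exon sequence 14.1% lies under D10Wsu102e on the other strand.

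Mthfd1l, which releases formate from mitochondria (chromosome 10, 3973118 to 4167081, plus strand), was the least abundant member in 3 of the 4 groups. It had 24.8, 25.1 and 24.8 RPKM in glutamine-free and 29.2, 30.0 and 30.4 RPKM in complete p53-null libraries, and 21.8, 21.5 and 21.9 RPKM in glutamine-free and 12.6, 12.8 and 13.0 RPKM in complete WT libraries. Every p53-null library was above every WT library, a separation that was not counted over all genes. Mthfd1l fell by 0.25 on the log2 scale in p53-null cells (SE 0.019, adjusted p = 3.8e-08) and rose by 0.72 ± 0.019 in WT cells (adjusted p = 3.0e-13). The p53-null line was 1.16 ± 0.019 higher in complete medium (adjusted p = 3.0e-15) and 0.19 ± 0.019 higher in glutamine-free medium (adjusted p = 4.5e-07).

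**Figure D2:**
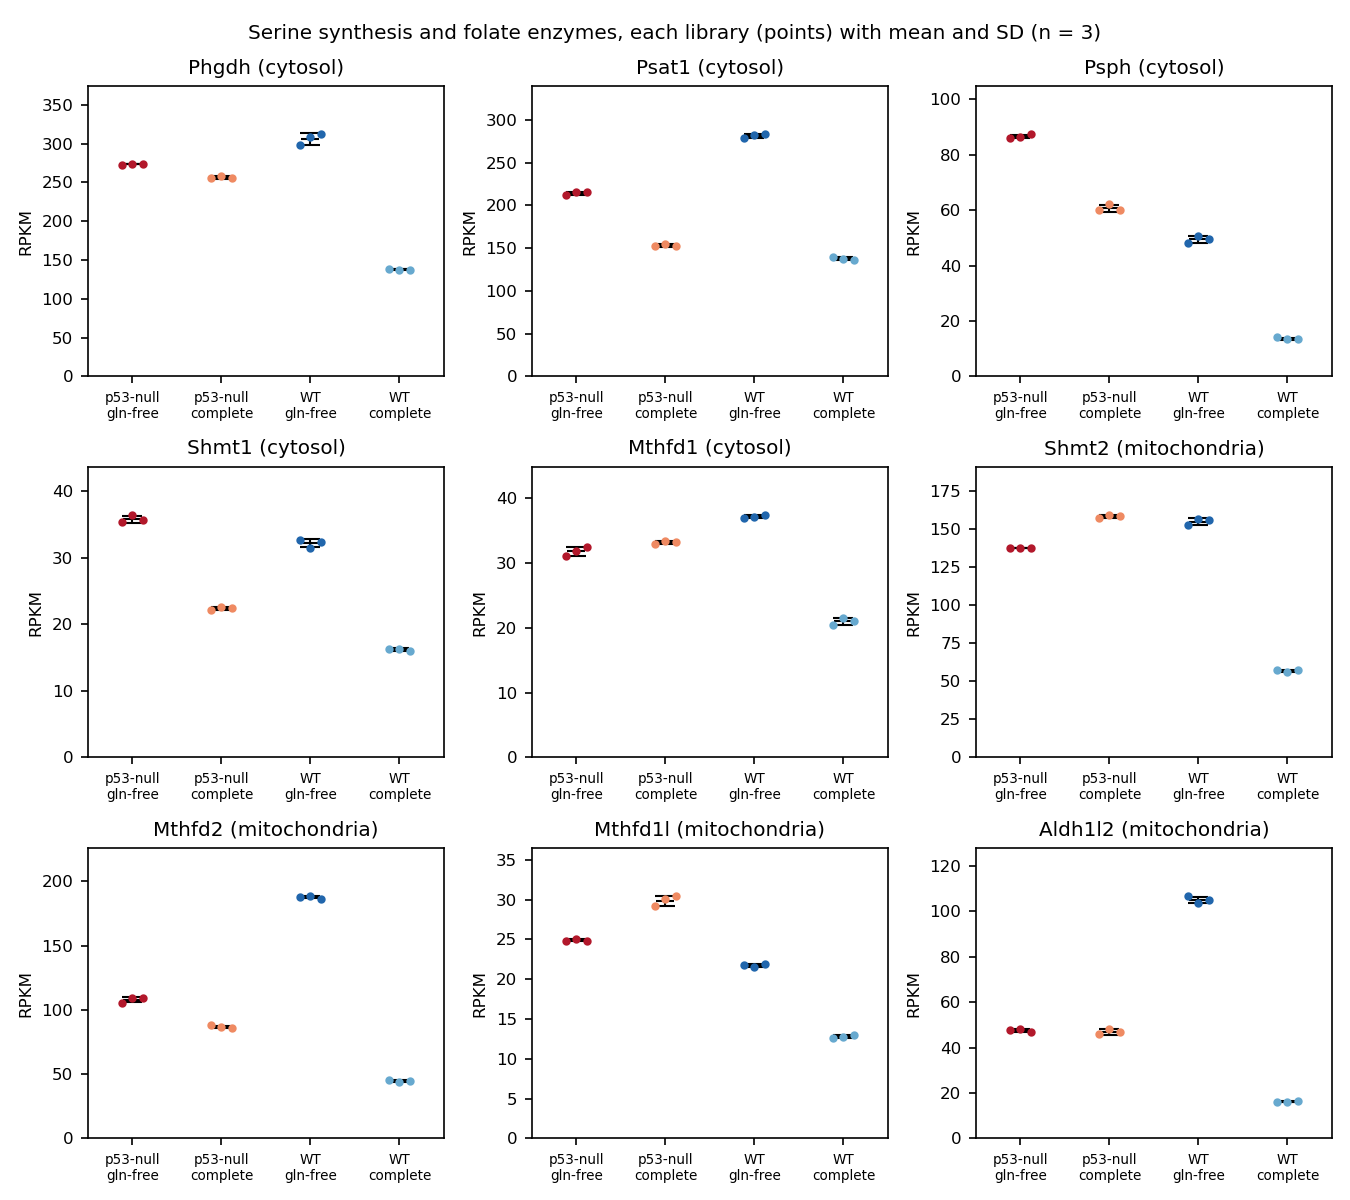
RPKM of each enzyme in each of the 12 libraries (points), with the mean and SD of the 3 libraries of a group; every axis starts at 0. In Shmt2 and Phgdh the WT complete libraries stand alone at the bottom, in Aldh1l2 and Mthfd2 the WT glutamine-free libraries stand alone at the top, and in Psph both p53-null groups stand above both WT groups.

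Between lines, all 9 enzymes were higher in p53-null cells in complete medium, with a median log2 difference of 0.95 against 0.05 over all genes, of which 48.4% were called higher and 42.5% lower. The difference was at least 1 for Psph, Shmt2, Mthfd1l and Aldh1l2, beside 9.14% of all genes. In glutamine-free medium 3 were higher and 6 lower in p53-null cells, with a median of -0.17 against 0.10 over all genes. Of all genes 51.4% were called higher and 40.0% lower, 5890 and 4584 genes. After quantile normalization the member counts were 4 higher and 4 lower, beside 5301 and 5066 over all genes. After rescaling to a common sum they were 3 and 4, beside 6659 and 3825. After median centring they were 2 and 6, beside 5002 and 5397. Rescaling to a common sum raised the median of all genes in these comparisons to 0.16 in complete and 0.26 in glutamine-free medium, and median centring moved the second to -0.03, so line differences near those sizes hang on the scaling. Other genes also set the lines apart: summed RPKM of 5 epithelial markers was 77.2 to 84.7 in p53-null and 0.0691 to 0.253 in WT libraries, nearly all from Krt18 and Krt19, with Epcam at no more than 0.00718 RPKM on average in any group. Over 4 neural markers, of which 3 were in the table, it was 1.32 to 1.97 in p53-null libraries, with Stmn2 at 0, and 21.3 to 39.8 in WT libraries. Blood, endothelial and muscle markers summed to 7.52, 1.58 and 1.41 RPKM at most in any library. The part of such differences of line identity in the enzyme levels was not tested.

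The ratio of a mitochondrial enzyme to the cytosolic enzyme of the same step moved in opposite directions in the lines for serine hydroxymethyltransferase. Shmt2 over Shmt1, as a ratio of RPKM within a library, was 3.88, 3.78 and 3.86 in glutamine-free and 7.09, 7.04 and 7.06 in complete p53-null libraries. In WT cells it was 4.66, 4.97 and 4.81 in glutamine-free and 3.51, 3.43 and 3.59 in complete libraries. The ratio was therefore lower without glutamine in all p53-null libraries and higher without glutamine in all WT libraries. In mean log2 terms it differed by -0.88 in p53-null and 0.45 in WT cells between glutamine-free and complete medium. The p53-null value combines a rise of Shmt1 with a fall of Shmt2, and in WT cells both genes rose.

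For the dehydrogenase step, Mthfd2 over Mthfd1 was higher without glutamine in both lines. It averaged 3.39 ± 0.0330 in glutamine-free and 2.62 ± 0.0463 in complete p53-null libraries, and 5.05 ± 0.0485 in glutamine-free and 2.12 ± 0.0993 in complete WT libraries (SD, n = 3 each). The log2 differences were 0.37 in p53-null and 1.25 in WT cells. Mthfd1l over Mthfd1, for the formate step, was below 1 in all 12 libraries. It averaged 0.783 ± 0.0160 in glutamine-free and 0.900 ± 0.0138 in complete p53-null libraries, and 0.585 ± 0.00470 in glutamine-free and 0.609 ± 0.0130 in complete WT libraries (SD, n = 3 each). This ratio differed more between lines than between media. Summed over the 4 mitochondrial enzymes, RPKM was 318 ± 2.42 in glutamine-free and 322 ± 1.92 in complete p53-null libraries, and 469 ± 0.811 in glutamine-free and 130.3 ± 1.60 in complete WT libraries, while the 5 cytosolic enzymes summed to 642 ± 3.60 and 526 ± 5.19 in the same p53-null groups and to 706 ± 10.7 and 326 ± 2.75 in the same WT groups. Of the cytosolic sums, the 2 folate enzymes held 67.58 ± 0.956 and 55.55 ± 0.468 RPKM in the same p53-null groups. In the same WT groups they held 69.32 ± 0.613 and 37.17 ± 0.613 RPKM. No test was made of these ratios and sums, since the members were chosen together.

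**Figure D3:**
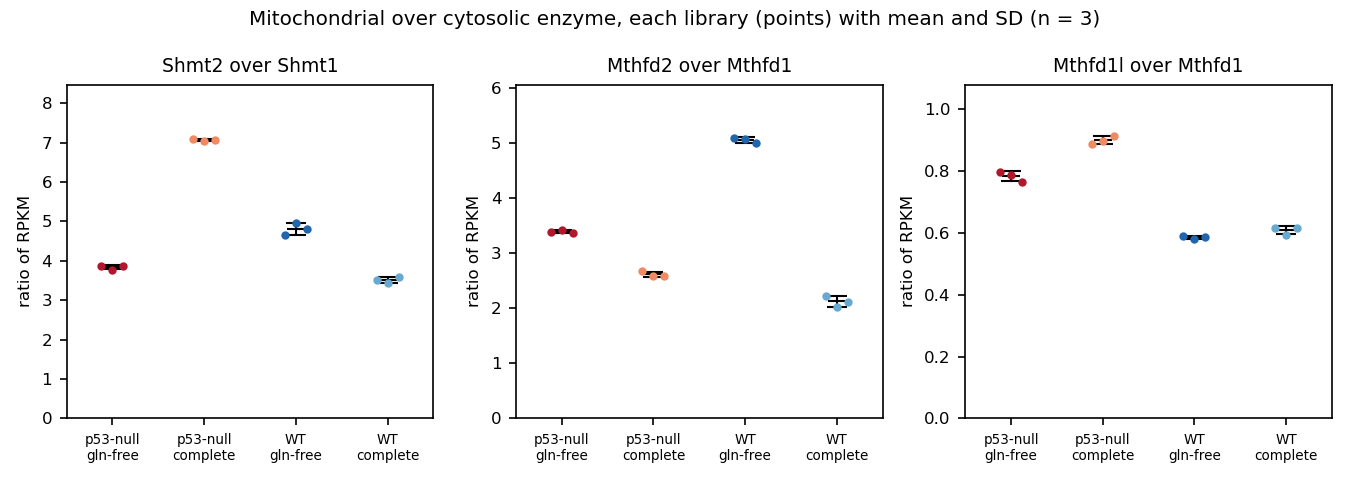
Ratio of RPKM of the mitochondrial to the cytosolic enzyme in each library (points), with mean and SD of the 3 libraries of a group. Shmt2 over Shmt1 is highest in p53-null complete libraries, near 7.06, and Mthfd2 over Mthfd1 is highest in WT glutamine-free libraries, near 5.05.

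In order of level, Phgdh led in each group. In p53-null cells the order without glutamine was Phgdh, Psat1, Shmt2, Mthfd2, Psph, Aldh1l2, Shmt1, Mthfd1 and Mthfd1l, and with glutamine Shmt2 stood above Psat1 and Shmt1 was last. The WT order without glutamine was Phgdh, Psat1, Mthfd2, Shmt2, Aldh1l2, Psph, Mthfd1, Shmt1 and Mthfd1l. With glutamine, Shmt2 stood above Mthfd2, and Mthfd1 and Shmt1 above Aldh1l2 and Psph. Neighbours in these orders did not overlap between libraries, except Phgdh with Psat1 and Shmt1 with Aldh1l2 in WT cells with glutamine. Together the 9 enzymes held 0.334 to 0.336% of the summed RPKM in glutamine-free and 0.289 to 0.293% in complete p53-null libraries, and 0.369 to 0.370% in glutamine-free and 0.145 to 0.146% in complete WT libraries.

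Around these enzymes, 6 lists of genes of folate, serine, glycine, methionine and purine metabolism held 43 names, of which 31 passed the filter. Of the 31, 18 rose and 9 fell in p53-null cells, with a median log2 change of 0.11 beside 0.08 over all genes. In WT cells 17 rose and 10 fell, with a median of 0.30 beside 0.01 over all genes. Over all genes 50.0% were called higher and 32.0% lower in p53-null cells, and 46.0% higher and 44.0% lower in WT cells.

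Among 7 tested folate cycle enzymes, 4 rose and 2 fell in p53-null cells and 2 rose and 2 fell in WT cells. Mthfs, which recovers folate from its formyl storage form, and Mthfsl were called lower in both lines, with Mthfsl at 2.03 ± 0.0629 against 3.90 ± 0.222 RPKM in p53-null and 2.33 ± 0.381 against 7.20 ± 0.220 RPKM in WT cells, glutamine-free against complete (SD, n = 3 each). Mthfs was low, at 1.02 ± 0.270 against 2.19 ± 0.209 RPKM in p53-null and 0.766 ± 0.301 against 3.56 ± 0.640 RPKM in WT cells. Of 5 tested genes of folate transport and storage, 2 rose and 2 fell in p53-null cells and 3 rose and 1 fell in WT cells. Slc19a1, the reduced folate carrier of the plasma membrane, was at 13.2 ± 0.364 against 9.10 ± 0.144 RPKM in p53-null and at 36.3 ± 1.03 against 11.3 ± 0.439 RPKM in WT cells, glutamine-free against complete. Slc25a32, which carries folate into mitochondria, rose by 0.22 in p53-null cells, and in WT cells it averaged 12.6 ± 0.304 RPKM in glutamine-free and 5.77 ± 0.178 RPKM in complete libraries (SD, n = 3 each). Fpgs, which adds the glutamate tail that keeps folate in the cell, changed by -0.30 in p53-null and 0.27 in WT cells, both called. Ggh, which removes that tail, changed by -0.07 in p53-null cells (adjusted p = 0.11, not called; -0.12 and called without replicate 3 of complete medium) and -0.42 in WT cells.

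The glycine cleavage system, which takes a carbon from glycine in mitochondria, and the related dimethylglycine enzymes had 4 tested genes, of which 2 rose and 1 fell in p53-null cells and 2 rose and 2 fell in WT cells. Dld, a subunit shared with the pyruvate and oxoglutarate dehydrogenases, rose by 0.21 in p53-null and 1.23 in WT cells, and Gcsh, the lipoyl carrier protein, by 0.11 in p53-null and 0.64 in WT cells, the p53-null value of Gcsh turning to -0.0023 after quantile normalization. Sardh, which oxidises sarcosine, changed by -0.58 in p53-null and -0.86 in WT cells. Of 5 tested methionine cycle genes 3 rose and 2 fell in p53-null cells, and 4 rose and 1 fell in WT cells. Mtrr, which keeps methionine synthase active, averaged 9.32 ± 0.288 against 5.84 ± 0.113 RPKM in p53-null and 24.4 ± 0.391 against 6.69 ± 0.159 RPKM in WT cells, glutamine-free against complete (SD, n = 3 each). Methionine synthase itself (Mtr) rose by 0.11 in p53-null and 1.17 in WT cells, the p53-null value turning to -0.02 after quantile normalization and to -0.0004 after median centring. Mat2a, which makes S-adenosylmethionine, changed by -0.09 in p53-null and 1.30 in WT cells, both called. Its partner subunit gene Mat2b changed by 0.11 in p53-null and -0.09 in WT cells, both called, but the p53-null value turned to -0.05 after quantile normalization. Ahcy, which clears S-adenosylhomocysteine, averaged 116 ± 30.6 RPKM in glutamine-free and 147 ± 11.9 RPKM in complete p53-null libraries, a change of -0.38 (adjusted p = 0.028) that failed the call without replicate 1 or replicate 2 of complete medium (adjusted p = 0.065 and 0.088), with no filter (0.076), after quantile normalization (0.053) and in a fit of its 2 groups alone (0.10). In WT cells Ahcy averaged 135 ± 1.38 RPKM in glutamine-free and 93.2 ± 0.923 RPKM in complete libraries (SD, n = 3 each), a change of 0.53 (adjusted p = 0.0038). Both Ahcy changes carry the same pooled SE of 0.144, so the WT p-value also holds the wider p53-null scatter.

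Among 8 tested serine carriers and serine-using enzymes, 5 rose and 2 fell in p53-null cells, and 4 rose and 4 fell in WT cells. Slc1a5 and Slc1a4, plasma membrane carriers of small neutral amino acids including serine, rose by 0.70 and 0.78 in p53-null and by 2.51 and 1.79 in WT cells. Sfxn3, of the sideroflexin family of mitochondrial serine carriers, changed by -0.90 in p53-null and -0.81 in WT cells. Its family did not move as 1, since Sfxn2 rose by 0.375 in p53-null and 0.295 in WT cells. Sfxn1 changed by 0.01 in p53-null cells (not called) and by -0.11 in WT cells (called). Both purine synthesis enzymes that use formyl-folate rose in both lines, Atic by 0.25 in p53-null and 1.06 in WT cells and Gart by 0.15 in p53-null and 0.70 in WT cells, the p53-null change of Gart turning to -0.0005 after quantile normalization.

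**Figure D4:**
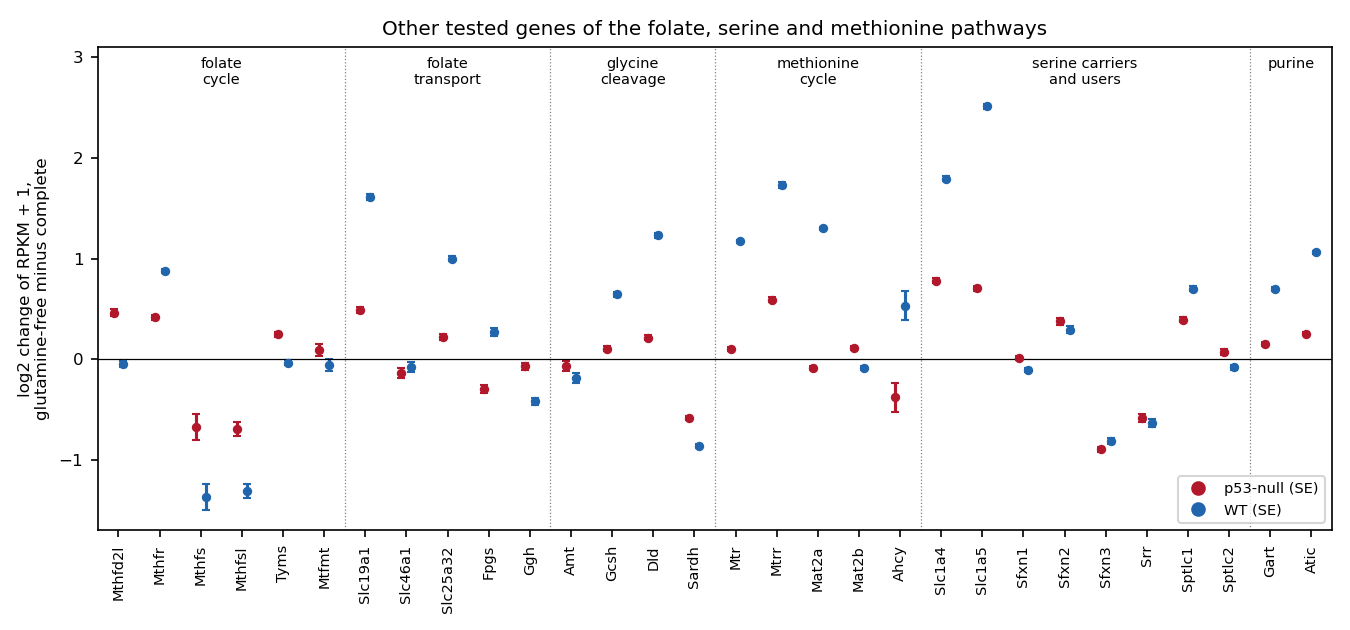
Change on glutamine withdrawal (log2 of RPKM + 1, glutamine-free minus complete) with its SE for 30 of the 31 other tested genes of folate, serine, glycine, methionine and purine metabolism, in p53-null cells (red) and WT cells (blue). Slc1a5 at 2.51, Slc1a4 at 1.79 and Mtrr at 1.73 in WT cells are the highest points. Mthfs, Mthfsl, Sardh, Sfxn3 and Srr were called lower in both lines. Other genes also lie below 0 in both lines but were not called in both.

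Some other genes moved in the same libraries. ATF4 and 8 of its established targets outside these pathways all rose in both lines. Their median log2 change was 0.81 in p53-null and 2.78 in WT cells, against 0.08 and 0.01 over all genes. Over all genes 50.0% were called higher in p53-null and 46.0% in WT cells. The difference of responses, p53-null minus WT, was below 0 and called for all 9, beside 38.4% of all genes called lower. Between lines 8 of the 9 were higher and 1 lower in p53-null cells in complete medium, beside 48.4% and 42.5% of all genes. In glutamine-free medium 1 was higher and 8 lower, beside 51.4% and 40.0%. Atf4 averaged 270 ± 4.85 against 206 ± 3.03 RPKM in p53-null and 386 ± 6.05 against 119 ± 1.46 RPKM in WT cells, glutamine-free against complete (SD, n = 3 each). The largest changes were of Chac1, Ddit3 and Trib3 in p53-null cells, 1.18, 1.08 and 1.06, and of Trib3, Atf5 and Slc7a11 in WT cells, 4.29, 3.37 and 3.01. Summed RPKM of 10 mitosis genes was 377 to 383 in glutamine-free and 484 to 488 in complete p53-null libraries, and 222 to 227 in glutamine-free and 595 to 601 in complete WT libraries. For 11 S phase genes it was 1024 to 1047 against 877 to 883 in p53-null and 922 to 933 against 604 to 609.7 in WT libraries, glutamine-free against complete. The part of ATF4 or of the cell cycle in the enzyme changes was not tested.

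Profiles over the 4 group means, each gene centred on its own mean, were compared by their root mean square (RMS) difference on the log2 scale. Outside the members, the nearest to Shmt2 was Mat2a at 0.0743, followed by Phf20l1 and Sac3d1 at 0.101 each. Mthfd2 was nearest to Surf2, Ppip5k2 and Tars, at 0.0297 to 0.0437, with Tars at 129 and 98.2 RPKM in glutamine-free and complete p53-null cells and at 230 and 51.9 RPKM in glutamine-free and complete WT cells. Aldh1l2 had no close match, with Atp2a3, Surf2 and Cox6a2 at 0.201 to 0.210. In WT complete libraries Atp2a3 averaged 0.0127 RPKM and Cox6a2 0.113 RPKM, so the added 1 RPKM shrinks their changes. Psph was nearest to Gdpd1, Fzd6 and Rars, at 0.0355 to 0.0929, and Shmt1 to Pisd, Sbds and Cdc25a, at 0.00975 to 0.0304. The nearest to Psat1 were Fam208b, Nufip1 and Prdx6, to Phgdh Snord57, Ptpmt1 and Thumpd1, to Mthfd1 Pnn, Pigq and Mrpl2, and to Mthfd1l Firre, Adi1 and Cnih4, all at 0.00705 to 0.0606. Snord57 was listed at 0 in WT complete libraries and averaged at most 1.29 RPKM in any group, so its likeness to Phgdh compares a low gene with an abundant one. The median RMS difference of all such genes from a member was 0.455 to 0.988. Among the members, Phgdh and Mthfd1 were the closest pair at 0.156. The nearest fellow member of each enzyme lay at 0.156 to 0.485, and the farthest at 0.49 to 0.822. Other genes nearer than the nearest fellow member numbered from 8 for Aldh1l2 to 873 for Psat1. Genes outside the members far outnumber the members, so these counts cannot show whether the 9 enzymes share 1 profile.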

How the data were processed

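RNA from 12 samples was sequenced from libraries of an unstranded kit (TruSeq RNA V2), with an input of 0.5 ug total RNA, per the labels' protocols. The authors deposited 1 RPKM value per gene and sample. CASAVA 1.8, HISAT2 2.0.4, Partek and mm10 are named, per the submitters' processing notes; their roles are unstated, and the annotation used for counting is not given in the sources used here. Read counts are not kept in RPKM: at the best-scoring depth 57.5 to 61.4% of low values came within 0.05 of whole reads, so counts were not recovered and the planned count test was not run. Precision is given as the SD over 3 libraries for levels, ratios and sums. For log2 changes it is the SE from limma, pooled over the 4 groups.

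Groups were taken from the sample labels. Values were transformed as log2(RPKM + 1), and 11461 of 19439 genes, those reaching 1 RPKM in 3 or more of 12 libraries, were fitted with limma 3.58.1 in R 4.3.3 (4 group means, mean-variance trend), which gave 5 comparisons. The fit was also run on simulated data in which few genes changed. Most genes were called in these data, so that run cannot vouch for the calls made here. Members and lists were chosen with earlier results of these data known. The genes named are the members, up to 3 called genes with the largest change per pathway list and medium comparison, and the 3 genes nearest in profile to each member. A gene of the folate lists is counted but not reported here by name. Atf4, Trp53 and the cell type markers named, as well as Srr, Sfxn1 and Sfxn2, were added for context. Coordinates and strand overlaps are from GENCODE M21 on GRCm38, the assembly that mm10 names. Motifs were not part of the planned tests and are description only. Alternatives were a pseudocount of 0.1, no filter, rescaling to a common sum, quantile normalization, median centring, fits of 2 groups, a replicate block and leaving out each library.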

Additional observations from a re-analysis of the deposited data

Results flagged for a closer look

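The response to glutamine withdrawal differed between the lines for each of the 9 enzymes by the test of the difference itself (limma, p53-null minus WT, log2 scale, adjusted over 11461 genes), as it did for 84.9% of all genes tested. Among the serine synthesis enzymes the difference was -1.05 ± 0.023 for Phgdh (SE, adjusted p = 2.2e-13), -0.55 ± 0.019 for Psat1 (adjusted p = 1.7e-11) and -1.28 ± 0.032 for Psph (adjusted p = 8.1e-13). For the cytosolic folate enzymes it was -0.30 ± 0.026 for Shmt1 (adjusted p = 2.1e-07) and -0.85 ± 0.029 for Mthfd1 (adjusted p = 1.5e-11). For the mitochondrial enzymes it was -1.63 ± 0.019 for Shmt2 (adjusted p = 1.4e-15), -1.74 ± 0.024 for Mthfd2 (adjusted p = 6.4e-15), -0.97 ± 0.026 for Mthfd1l (adjusted p = 1.7e-12) and -2.61 ± 0.028 for Aldh1l2 (adjusted p = 7.1e-16). A difference larger in size than that of Aldh1l2 was found in 0.532% of tested genes, and one larger than that of Shmt1 in 63.0%. In complete medium all 9 enzymes were higher in p53-null than in WT cells, and the same complete-medium libraries enter both that difference and the difference of responses.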

How the results depend on the processing

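Counts of members called stayed within 1.5 times under each alternative run. Called signs that turned were Phgdh on withdrawal in p53-null cells (-0.0138, median centred), Phgdh and Shmt2 between lines in glutamine-free medium (0.203 and 0.0252, quantile normalization), and Gart, Gcsh, Mat2b and Mtr in p53-null cells (-0.0005, -0.0023, -0.0547 and -0.0165, quantile normalization; Mtr also -0.0004, median centred). The uncalled Ggh change in p53-null cells was called at -0.128 after quantile normalization and -0.177 after median centring. The uncalled Aldh1l2 change in p53-null cells became -0.0896 after quantile normalization (adjusted p = 0.0012) and -0.0828 after median centring (adjusted p = 0.0019). In the other direction, it was called at 0.0483 after rescaling to a common sum (adjusted p = 0.049). The cause was not tested. With a pseudocount of 1 the mean log2 ratio Shmt2 over Shmt1 moved to 1.91 in p53-null glutamine-free, 2.77 in p53-null complete and 1.75 in WT complete cells, Mthfd2 over Mthfd1 to 1.73, 1.36 and, in WT glutamine-free cells, 2.31, and Mthfd1l over Mthfd1 to -0.75 in WT glutamine-free and -0.67 in WT complete cells, by construction since it pulls ratios to 1. Same-numbered libraries did not deviate together (r = -0.106 to 0.088 over 18 pairs). That cannot show whether they were prepared as numbered sets. With the replicate block 9 members were called higher in WT and 5 in p53-null cells, as without it. The fit of 2 groups has no value for the difference of responses, and the count test was not run since whole reads were not recovered.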
